A study of Mus musculus with 48 samples.

Results

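Wee1, Cdkn1a, Ccnd1, Ccnd2, Ccnd3 and Myc are 6 mouse genes that act where the circadian clock meets the cell division cycle. They were taken by name, as clock-linked regulators of cell-cycle entry and of mitosis, and all 6 were found among the 11313 gene symbols of the deposited tables. RNA came from NIH 3T3, an immortalised line of mouse embryo fibroblasts, in 48 libraries. One stable line carried a control hairpin (shCTRL) and the other a hairpin against Bmal1 (shBmal1), the gene of a core clock activator that the tables name Arntl. Both lines received 50% horse serum for 2 h, which sets the clocks of the cells to a common phase, and were collected every 2 h from 24 to 46 h after serum. Each culture gave a total RNA library and a library of nascent RNA, which was pulled down by its content of 4sU, a labelled form of uridine given to the cells, so that the 4 groups (total RNA and 4sU RNA of each line) held 12 libraries each, 1 per time point. No time point was repeated within a group and each hairpin was studied in 1 line. Every p-value therefore sets an effect against the spread of single libraries around fitted curves, and takes in no variation between independent lines. What the hairpin did cannot be told apart from other differences between the 2 lines.

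The D-type cyclins, encoded by Ccnd1, Ccnd2 and Ccnd3, bind the kinases CDK4 and CDK6 and start the inactivation of the retinoblastoma protein that lets a cell leave G1. Cdkn1a encodes p21, a CDK inhibitor induced by p53. Myc encodes a transcription factor that promotes growth and entry into the cycle. Wee1 encodes the kinase that phosphorylates CDK1 and holds a cell at the entry to mitosis. In mouse liver, Wee1 is a known output of the clock activators through E-boxes in its promoter, and Cdkn1a a known target of the clock repressor REV-ERB alpha. D cyclin and Myc transcripts are short-lived in many cells, and both follow growth signals such as serum.

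Values are scaled RPKM (reads per kilobase of exon or intron and scaled to the mapped reads, divided by a library factor that gives the typical gene of each layer the same level in every library). A line difference is the shBmal1 minus the shCTRL mean of log2 values, with its standard error (SE), from a limma model with a mean and 24-h and 12-h waves for each line. Calls were made at a Benjamini-Hochberg adjusted p under 0.05 over all genes of a layer. Total exon is the level of RNA present, 4sU intron is newly made unspliced RNA, and the 4sU/total ratio is the log2 difference between 4sU exon and total exon of the same culture. A level in a mixed culture does not tell RNA per cell from the share of cells that hold it, for example cells in a given phase of the cycle.

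The libraries held 48873013 to 76260143 mapped reads, as recovered from the steps of the RPKM values, and single members rested on 826 to 59053 exon reads per library. The hairpin's target, Arntl, had a total exon level of 9.24 ± 6.02 scaled RPKM in shCTRL and 3.74 ± 0.72 in shBmal1 (mean ± SD, n = 12 each), a line difference of -0.92 ± 0.08 (SE; limma adjusted p = 3.59e-09). The fibroblast markers were present in both lines (8 of 8 markers, summed to 3876 to 4646 RPKM in shCTRL and 4112 to 4593 in shBmal1). Of these 8, 3 were called higher and 5 lower in shBmal1 in total exon RNA, where 67.6% of all genes were called. Of the other cell types' lists, only Krt14 (epithelial), Lyz2, Cd68 and Cd14 (leukocyte), Cdh5 (endothelial) and Plin4 (adipocyte) were in the tables, that is 1 of 5, 3 of 5, 1 of 4 and 1 of 4 markers, and none of 4 neural ones. Krt14 ran from 2.09 to 4.32 RPKM in shCTRL and from 7.64 to 13.6 in shBmal1, and the 3 leukocyte genes summed to 12.8 to 19.99 and 17.2 to 25.2; their part in the results was not tested. The shBmal1 culture of 46 h stood apart from the other shBmal1 cultures for Myc and for Ccnd2 introns. Values without it are given beside those genes. Over all genes, the shBmal1 culture of 34 h lay farthest from the median of its group in every RNA layer. Its median absolute deviation was 0.23 (log2) in total exon and 0.30 in 4sU exon, against 0.11 and 0.12 at 46 h.

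The 6 genes lie on 4 chromosomes in GRCm38.p6. Wee1 spans chr7:110122059-110143299 and Ccnd1 spans chr7:144929931-144939831. Cdkn1a spans chr17:29090979-29100722 and Ccnd3 spans chr17:47505051-47599689. Ccnd2 spans chr6:127125162-127152188 and Myc spans chr15:61985341-61990361. RefSeq start regions on that build were at hand for 2 of the 6 genes, Cdkn1a and Ccnd3. All but the downstream window of Cdkn1a are shown. The start of Ccnd3 decides how its intron values can be read, and known p53 targets were among the genes most like Cdkn1a. Each sequence is the 250 bases before an annotated start, plus strand, with motif matches in capitals.
Cdkn1a, upstream start, chr17:29090729-29090978: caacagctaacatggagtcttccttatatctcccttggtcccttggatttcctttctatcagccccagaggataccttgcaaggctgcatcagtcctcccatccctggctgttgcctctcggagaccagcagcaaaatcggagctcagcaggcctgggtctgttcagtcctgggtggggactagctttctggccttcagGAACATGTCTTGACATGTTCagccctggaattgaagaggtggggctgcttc
Ccnd3, upstream start, chr17:47504801-47505050: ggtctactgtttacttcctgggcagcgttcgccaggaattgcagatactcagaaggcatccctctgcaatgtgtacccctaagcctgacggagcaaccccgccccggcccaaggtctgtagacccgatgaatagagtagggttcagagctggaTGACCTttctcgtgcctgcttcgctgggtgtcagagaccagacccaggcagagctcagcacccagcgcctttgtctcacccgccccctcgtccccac
Ccnd3, downstream start, chr17:47593217-47593466: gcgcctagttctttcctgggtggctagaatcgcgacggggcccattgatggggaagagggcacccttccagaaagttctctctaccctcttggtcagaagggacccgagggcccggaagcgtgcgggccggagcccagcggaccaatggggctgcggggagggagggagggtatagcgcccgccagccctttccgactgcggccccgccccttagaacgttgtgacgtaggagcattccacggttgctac

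Each window was searched on both strands for the E-box CACGTG, the ROR element core AGGTCA and the D-box TTATGNAA, and for the p53 site by name (20 bases without a spacer, at most 1 mismatch to the consensus). The upstream Cdkn1a window held a p53 site with 1 mismatch at -51 to -32 from the start, a match that 0.0761% of 32851 RefSeq windows of the same length held. The upstream Ccnd3 window held AGGTCA on the minus strand (TGACCT as printed) at -97 to -92, a match held by 14.0% of the windows. No motif overlapped another. CACGTG (in 6.02% of windows) and TTATGNAA (in 3.07%) were not among the letters of these windows. The window before the downstream Cdkn1a start, chr17:29093519-29093768, held no match to any of the 4 motifs. The 2 Cdkn1a starts lie 2790 bases apart, and the 2 Ccnd3 starts 88416 bases apart.

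The D-type cyclin mRNAs differed between the lines in opposite directions. In total exon RNA, Ccnd1 and Ccnd3 were higher and Ccnd2 was lower in shBmal1, with no overlap between the 12 libraries of each line for any of the 3. Of all 10912 genes tested, 67.6% were called in this comparison (34.4% higher and 33.1% lower in shBmal1) and 13.0% had lines that did not overlap, so a call in itself was common; of the 6 genes, 3 were called higher, 1 lower and 2 not, and the median of all genes was 0.01 (log2).

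Ccnd1 had a total exon level of 34.0 scaled RPKM at its lowest, 36.04 at the median and 47.1 at its highest in shCTRL. In shBmal1 the same values were 60.7, 70.2 and 89.8. Every shBmal1 library lay above every shCTRL library, and the line difference was 0.92 ± 0.04 (log2, SE; 1.90-fold; limma adjusted p = 9.49e-14), with shBmal1 above shCTRL in 12 of 12 pairs of one time. The distance between the lines was widest at 24 h (1.37) and narrowest at 46 h (0.37), since the level was highest at 46 h in shCTRL and at 24 h in shBmal1.

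Ccnd2 ran the other way. Its total exon level was 57.9 at the lowest, 64.0 at the median and 74.5 at the highest in shCTRL, and 25.8, 33.6 and 42.9 in shBmal1. The lines did not overlap, and Ccnd2 was lower in shBmal1 at 12 of 12 time points (-0.93 ± 0.05, SE; 1.91-fold lower; limma adjusted p = 3.89e-13). Without the 46 h cultures the difference was -0.96.

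Ccnd3 had a total exon level of 24.0 at the lowest, 30.8 at the median and 33.6 at the highest in shCTRL, and 37.6, 48.2 and 55.6 in shBmal1. The lines again did not overlap, and the difference was 0.66 ± 0.05 (SE; 1.58-fold; limma adjusted p = 8.35e-10), seen in 12 of 12 pairs.

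Because RPKM is per length, the 3 cyclins can be set beside each other. Ccnd2 was the highest of the 3 in 12 of 12 shCTRL total RNA libraries, with 48.9% ± 3.45 of their summed level (mean ± SD, n = 12), against 28.6% ± 2.11 for Ccnd1 and 22.5% ± 2.44 for Ccnd3. In shBmal1, Ccnd1 was the highest in 12 of 12 libraries, with 46.98% ± 5.01, followed by Ccnd3 with 30.7% ± 3.58 and Ccnd2 with 22.3% ± 3.59. The order Ccnd2, Ccnd1, Ccnd3 in shCTRL thus became Ccnd1, Ccnd3, Ccnd2 in shBmal1. The summed level moved less than its parts, from 123 to 147 scaled RPKM in the shCTRL libraries and from 144 to 166 in those of shBmal1. In 4sU exon RNA the order was less settled in shBmal1, where Ccnd1 was the highest in 9 libraries and Ccnd2 in 3, while Ccnd2 was the highest in 12 of 12 shCTRL libraries.

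**Figure D1:**
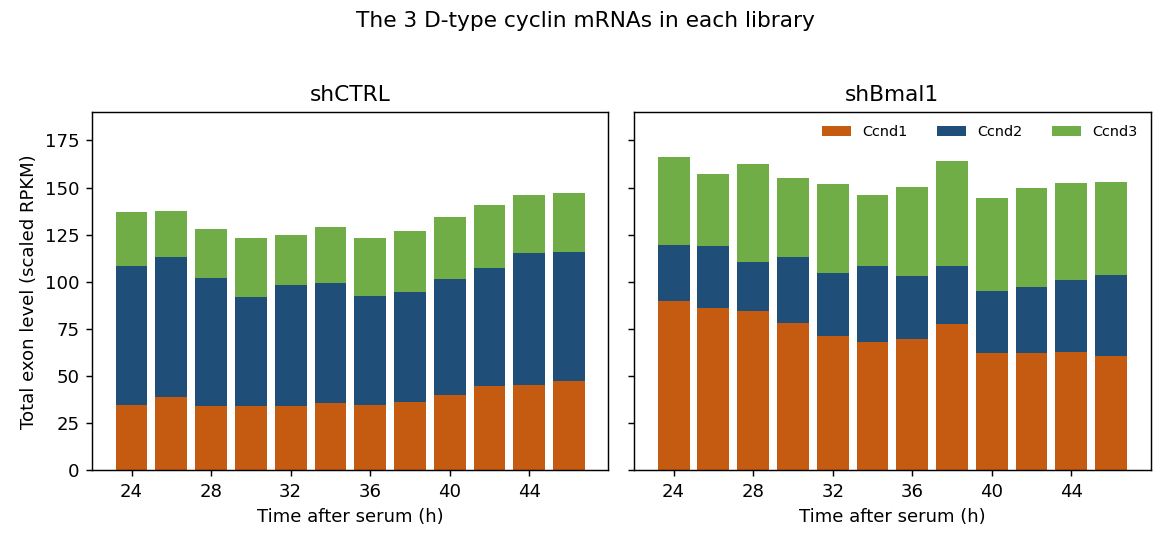
Stacked total exon levels (scaled RPKM) of the 3 D-type cyclins by time after serum in h, 1 bar per library, with shCTRL on the left and shBmal1 on the right. The Ccnd2 segment is the tallest in each shCTRL bar (57.9 to 74.5) and the Ccnd1 segment in each shBmal1 bar (60.7 to 89.8).

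Newly made RNA separated Ccnd2 from its paralogs. In 4sU exon RNA (54.4% of genes called), Ccnd1 was higher in shBmal1 by 0.70 ± 0.05 (SE; limma adjusted p = 6.03e-10) and its lines did not overlap, as in 6.44% of all genes. Ccnd3 was higher by 0.38 ± 0.07 (adjusted p = 0.000134), with overlap. For Ccnd2 the 4sU exon difference was -0.14 ± 0.06 and was not called (adjusted p = 0.0568), with levels of 51.0, 57.3 and 66.8 (lowest, median, highest) in shCTRL and 40.6, 52.1 and 70.2 in shBmal1. It was called without the 26, 30 or 46 h cultures, and without 46 h it was -0.19 (adjusted p = 0.0112).

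The introns of Ccnd2 did not show the deficit of its mRNA. Its 4sU intron level was 1.12 at the lowest, 1.33 at the median and 1.43 at the highest in shCTRL, and 1.11, 1.59 and 2.67 in shBmal1, where the 46 h culture was the highest. The lines overlapped, and on the scaled values the level was higher in shBmal1 by 0.26 ± 0.07 (SE; limma adjusted p = 0.00458; 44.4% of genes called in this layer), also without the 46 h cultures (0.20, adjusted p = 0.000772). On RPKM as deposited the direction was the opposite (-0.21, adjusted p = 0.00677), with the median of all genes at -0.45. The deposited 4sU intron values of shBmal1 carried a library total 1.35 to 1.39 times the exon total, whereas the other 36 libraries had equal totals, so only differences relative to the typical gene can be read there. In total RNA introns, whose totals were equal, the Ccnd2 difference was 0.11 ± 0.06 and was not called (adjusted p = 0.125), nor was it without 46 h (0.059, adjusted p = 0.159).

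The 4sU/total ratio put the contrast into 1 number per culture. For Ccnd2 it was -0.26 at the lowest, -0.13 at the median and -0.06 at the highest in shCTRL, and 0.44, 0.65 and 0.80 in shBmal1. No shBmal1 culture came near the shCTRL range, and the difference was 0.79 ± 0.04 (log2, SE; limma adjusted p = 1.91e-11), with the same sign in 12 of 12 cultures. In this layer 15.9% of the genes were called higher and 12.1% lower in shBmal1, and 2.87% had lines that did not overlap. Among all genes tested, 38.2% had a lower mean ratio than Ccnd2 in shCTRL and 92.0% in shBmal1. The ratio is relative to the typical gene of each line, since the spike-ins were not analysed here.

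Ccnd1 and Ccnd3 had lower ratios in shBmal1. Ccnd1 ran from -0.20 over -0.12 to 0.06 in shCTRL and from -0.58 over -0.29 to -0.23 in shBmal1, without overlap (-0.23 ± 0.04, SE; limma adjusted p = 0.000133). Ccnd3 ran from -0.46 over -0.41 to -0.27 in shCTRL and from -0.90 over -0.68 to -0.45 in shBmal1, with the lines touching (-0.28 ± 0.04; adjusted p = 1.64e-05). The mean ratio of Ccnd1 was above that of 42.7% of genes in shCTRL and 27.8% in shBmal1. For Ccnd3 these shares were 21.5% and 8.81%. Wee1 (0.04 ± 0.05; adjusted p = 0.565), Cdkn1a (-0.01 ± 0.04; adjusted p = 0.898) and Myc (-0.04 ± 0.04; adjusted p = 0.548) were not called. Wee1 had the highest ratio of the 6 in both lines, above that of 96.0% of genes in shCTRL and 95.5% in shBmal1.

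**Figure D2:**
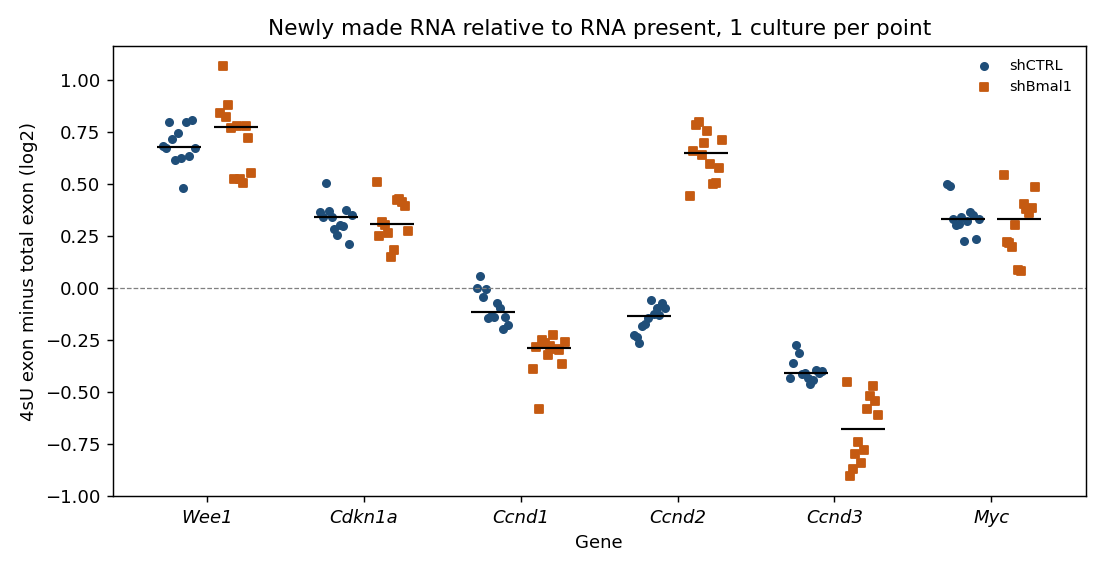
The 4sU/total ratio (log2 of 4sU exon minus log2 of total exon) of each culture by gene, with shCTRL as circles, shBmal1 as squares and a bar at the median of 12 cultures. The Ccnd2 points of shBmal1 (0.44 to 0.80) lie clear of those of shCTRL (-0.26 to -0.06), while Ccnd1 and Ccnd3 points lie lower in shBmal1.

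Introns of Ccnd1 and Ccnd3 went with their mRNAs in total RNA, where 56.1% of the genes were called and 6.01% did not overlap. Ccnd1 was at 1.04, 1.29 and 1.55 (lowest, median, highest) in shCTRL and at 1.55, 1.89 and 2.35 in shBmal1, with no overlap (0.63 ± 0.05, SE; limma adjusted p = 1.09e-08). Ccnd3 was at 3.36, 4.18 and 4.97 in shCTRL and at 4.81, 6.69 and 8.38 in shBmal1, with a small overlap (0.69 ± 0.08; adjusted p = 4.34e-07). In 4sU introns Ccnd1 was higher at 12 of 12 time points (0.49 ± 0.09; adjusted p = 0.00034), a call lost on RPKM as deposited (0.02, adjusted p = 0.821).

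The Ccnd3 values of 4sU introns cannot be compared between the lines as deposited. The length behind its intron RPKM was 3644 bases in 3 groups and 92088 bases in shBmal1 4sU, and the extra length is about the 88416 bases between its 2 annotated starts. The fitted difference of -4.09 ± 0.08 (SE) is therefore not one of like with like. With shBmal1 put on the shorter length, by a multiplication that assumes no reads in the added stretch, it was 0.41 (adjusted p = 0.000651), which is an upper limit.

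**Figure D3:**
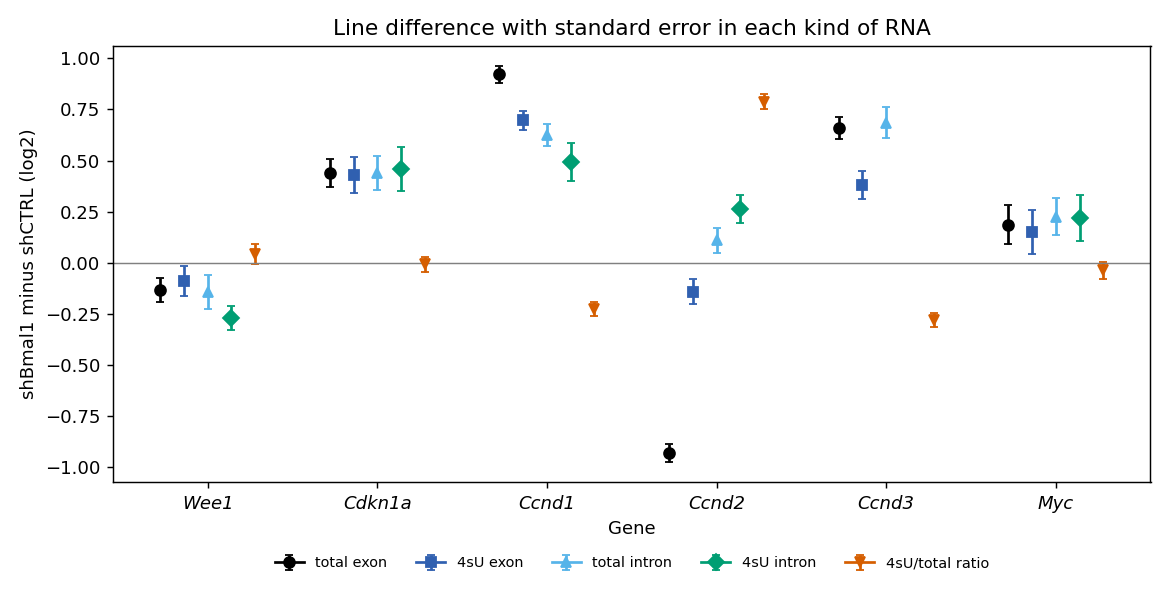
Line difference (shBmal1 minus shCTRL, log2) with its SE for each gene in total exon, 4sU exon, total intron, 4sU intron and the 4sU/total ratio. The Ccnd2 points run from -0.93 in total exon to 0.79 in the ratio, the Cdkn1a points of the 4 RNA layers lie between 0.43 and 0.46, and the 4sU intron value of Ccnd3 is left out because its lengths differed.

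Cdkn1a, the most abundant of the 6 mRNAs, was higher in shBmal1 in each of the 4 RNA layers. Its total exon level was 174 at the lowest, 210 at the median and 268 at the highest in shCTRL, and 212, 288 and 384 in shBmal1. The lines overlapped, but within each time point the shBmal1 library was the higher of the pair (12 of 12), and the difference was 0.44 ± 0.07 (log2, SE; 1.35-fold; limma adjusted p = 9.39e-06). The level was lowest at 46 h in both lines. The difference was 0.43 ± 0.09 in 4sU exon (adjusted p = 0.00041), 0.44 ± 0.08 in total intron (adjusted p = 0.000175) and 0.46 ± 0.11 in 4sU intron (adjusted p = 0.00205). The last of these was not called on RPKM as deposited (-0.02, adjusted p = 0.857). No 24-h wave was called in either line in total exon (adjusted p = 0.482 in shCTRL and 0.408 in shBmal1).

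The genes whose total exon pattern was most like that of Cdkn1a, over 24 libraries with the line means removed, were Btg2 (Pearson r = 0.91), Def6 (0.90) and Fdxr (0.90). Btg2, an antiproliferative gene, and Fdxr, a mitochondrial reductase, are known p53 targets. Of 5 other genes of the CIP/KIP and p53 list found in the tables, 3 were higher and 1 lower in shBmal1 (median 0.50), against 34.4% and 33.1% of all genes. Mdm2, the ubiquitin ligase that degrades p53 and is itself induced by it, was higher by 0.88 ± 0.06 (SE; limma adjusted p = 2.06e-10), at 23.3 ± 1.70 scaled RPKM in shCTRL and 43.5 ± 8.09 in shBmal1 (mean ± SD, n = 12). Trp53inp1, another p53 target, was higher by 0.57 ± 0.06 (adjusted p = 1.66e-08). The activity of p53 was not measured, and its part in the Cdkn1a difference was not tested.

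Wee1 showed the clearest 24-h wave of the 6, over a course of 24 to 46 h that held no second cycle. Its total exon level in shCTRL was 12.4 scaled RPKM at 26 h, was lower at each later time point down to 4.55 at 40 h, and stood at 6.52 at 46 h. The shBmal1 course began at 8.42 (24 h) and ended at 4.68 (46 h), its lowest value, with 7.71 at 34 h. The lines overlapped, with medians of 6.31 and 6.44, and the difference in mean level was -0.13 ± 0.06 (SE; limma adjusted p = 0.0527), which was called without the 24 or 34 h cultures (adjusted p down to 0.0204). At 26 h shBmal1 was lower by 0.65 and at 34 h higher by 0.33. The 34 h culture was the shBmal1 culture that lay farthest from its group over all genes.

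The fitted 24-h wave of Wee1 in shCTRL had an amplitude of 0.63 ± 0.06 (mean to peak, log2, SE), a peak at 27.2 h and a 2.38-fold distance from peak to trough (limma adjusted p = 2.19e-06). In shBmal1 the amplitude was 0.31 ± 0.06, with a peak at 29.6 h (adjusted p = 0.00611). The waves differed between the lines (adjusted p = 0.0342), a call that 8 of 12 single time points removed when left out (adjusted p up to 0.221). A straight line of time added to the model left the wave called in shCTRL (adjusted p = 0.0002) and not in shBmal1 (0.05, adjusted p = 0.875). In total exon RNA, 3.60% of genes had a called 24-h wave in shCTRL, 11.1% in shBmal1 and 0.806% a difference between them, and of the 6 genes 2, 2 and 2 did, in each case Wee1 and Ccnd1.

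The wave of Wee1 was also in its newly made RNA. Its 4sU intron level in shCTRL was 0.29 at the lowest (38 h), 0.44 at the median and 0.80 at the highest (26 h), with an amplitude of 0.63 ± 0.06 and a peak at 27.0 h (limma adjusted p = 1.09e-05; 1.12% of genes called). In shBmal1 the level ran from 0.25 at 42 h over 0.38 to 0.55 at 28 h, with an amplitude of 0.50 ± 0.06 and a peak at 29.0 h (adjusted p = 0.000665; 5.82% of genes called). The difference of these waves was not called (adjusted p = 0.185; 0.285% of genes called). With a straight line of time in the model the shBmal1 wave was 0.26 and not called (adjusted p = 0.331). In 4sU exon the amplitudes were 0.66 ± 0.07 (peak 27.0 h; adjusted p = 4.85e-05; 1.98% of genes called) and 0.44 ± 0.07 (peak 28.7 h; adjusted p = 0.00245; 17.9% called), again without a called difference (adjusted p = 0.179; 1.06% of genes called), and with a straight line the shBmal1 wave was 0.052 and not called (adjusted p = 0.795). In total introns the wave was called in shCTRL (0.50 ± 0.08, peak 26.5 h; adjusted p = 0.0098; 1.34% of genes called), though not without the 26, 38 or 40 h cultures, and not in shBmal1 (0.21 ± 0.08; adjusted p = 0.278; 5.17% of genes called). The mean 4sU intron level of Wee1 was lower in shBmal1 by 0.27 (-0.27 ± 0.06, SE; limma adjusted p = 0.00119). On RPKM as deposited the Wee1 line difference was -0.72, in a layer where the median of all genes was itself shifted to -0.45. The scaled difference was not called in a model without waves (adjusted p = 0.214).

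**Figure D4:**
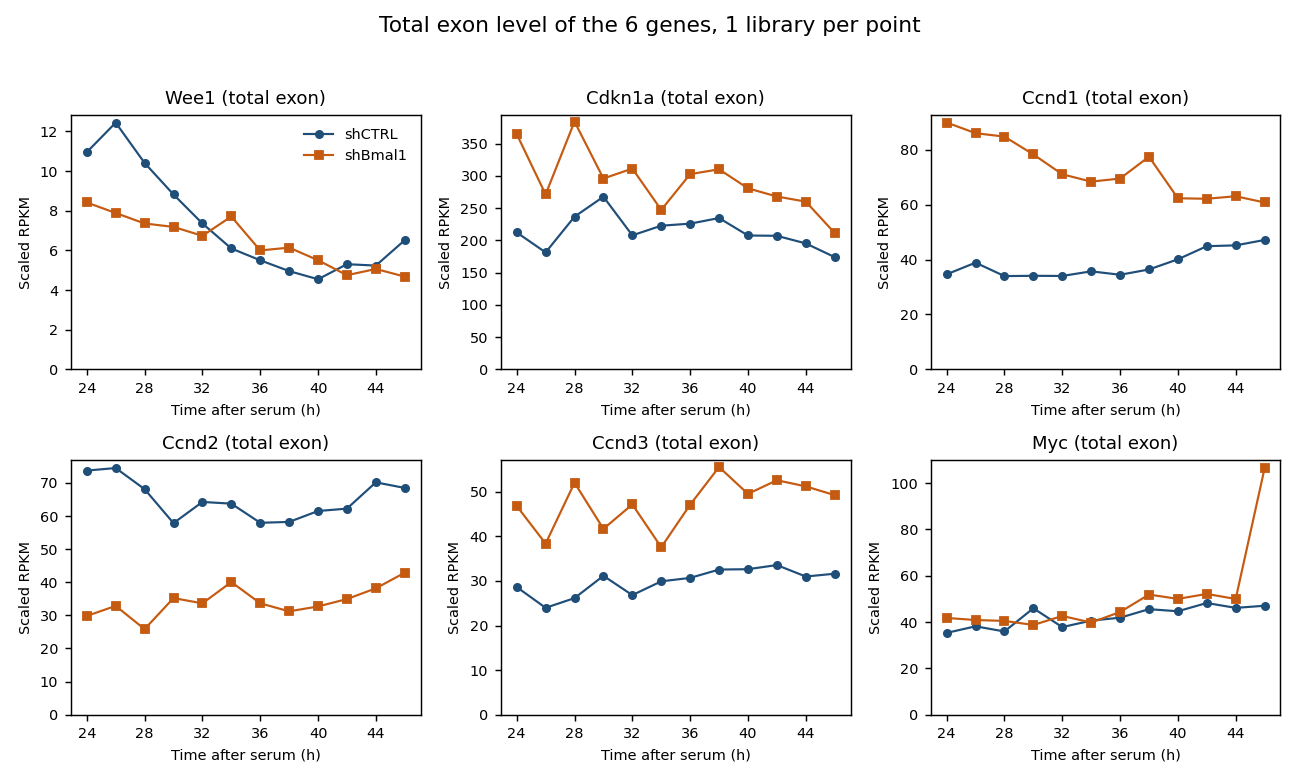
Total exon level (scaled RPKM) of each gene against time after serum in h, with shCTRL as circles and shBmal1 as squares, 1 library per point. Wee1 goes from 12.4 at 26 h to 4.55 at 40 h in shCTRL, the 3 cyclins have separate lines at each time point, and Myc reaches 106 in the shBmal1 culture of 46 h.

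The genes with total exon patterns most like that of Wee1 were Anxa8 (r = 0.92), Ces2g (0.91) and Vim (0.90). The list of the mitotic switch held genes that act for entry into mitosis and genes that act against it, such as Pkmyt1, Chek1 and Chek2. Of its 10 genes, 8 were higher in shBmal1, none was lower, and the median was 0.35. Of all genes, 34.4% were higher and 33.1% lower. Cdk1, the kinase that Wee1 inhibits, was at 8.72 ± 1.90 scaled RPKM in shCTRL and 15.1 ± 4.37 in shBmal1 (mean ± SD, n = 12), a difference of 0.76 ± 0.06 (SE; limma adjusted p = 1.59e-09). Chek2, a checkpoint kinase, was higher by 0.74 ± 0.08 (adjusted p = 1.34e-07), on exon lengths of 2247 bases in shCTRL and 2163 in shBmal1. A 24-h wave was called for 2 of these 10 genes in shCTRL and for 9 in shBmal1, against 3.60% and 11.1% of all genes, and a difference between the lines for none of the 10. With a straight line of time in the model, called waves over all genes fell from 393 to 108 in shCTRL and from 1214 to 11 in shBmal1. Most called shBmal1 waves thus could not be told apart from trends over the course, and these 10 genes were not examined singly.

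Of 10 clock factors, 3 were higher and 5 lower in shBmal1 (median -0.17), against 34.4% and 33.1% of all genes. Nr1d2 (-1.68 ± 0.07; limma adjusted p = 4.27e-14) and Nr1d1 (-1.56 ± 0.06; adjusted p = 2.62e-15), which encode the repressors REV-ERB beta and alpha, differed most. Nr1d1, the factor linked to Cdkn1a in liver, was at 71.95 ± 51.6 scaled RPKM in shCTRL and 19.4 ± 5.67 in shBmal1 (mean ± SD, n = 12). A link between the Nr1d1 and Cdkn1a differences was not tested. A 24-h wave was called for 7 of the 10 in shCTRL, for 6 in shBmal1, and a difference between the lines for 6, against 3.60%, 11.1% and 0.806% of all genes. With a straight line of time in the model, these calls over all genes fell to 108, 11 and 30 genes. The 10 clock factors were not examined singly in that model.

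Ccnd1 was the other member with a called 24-h wave in total exon RNA in both lines. The amplitude was 0.20 ± 0.04 with a peak at 43.7 h in shCTRL (limma adjusted p = 0.0158) and 0.19 ± 0.04 with a peak at 28.3 h in shBmal1 (adjusted p = 0.0139), and the waves differed (adjusted p = 0.0073). These values follow a level that was 34.6 at 24 h and 47.1 at 46 h in shCTRL, and 89.8 at 24 h and 60.7 at 46 h in shBmal1. With a straight line of time in the model none of the 3 was called (adjusted p = 0.221, 0.877 and 0.999), so that a daily wave and opposite trends over the 22 h could not be told apart. Leaving out 30, 40 or 42 h also removed the difference (adjusted p up to 0.082).

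The genes most like Ccnd1 were LTO1 (r = 0.97), Ralb (0.87) and Slc2a1 (0.83), the last a glucose transporter. LTO1 is the neighbour of Ccnd1 on chromosome 7, and their RefSeq spans overlap by 818 bases. The labels do not say how reads there were assigned, so shared reads may enter that likeness. The genes most like Ccnd2 were Hivep2 (0.96), Gm43126 (0.92) and Aff1 (0.92), and those most like Ccnd3 were Mark2 (0.91), Nectin1 (0.91) and Arhgap23 (0.91). All these correlations share libraries and scaling, and are descriptions.

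Among the partners of cyclin D, 1 of 7 tested genes was higher and 3 were lower in shBmal1 (median -0.13), so that 4 of 7 were called where 67.6% of all genes were. The higher gene was Cdk4, a kinase partner of the D cyclins, at 164 ± 13.6 scaled RPKM in shCTRL and 212 ± 19.1 in shBmal1 (mean ± SD, n = 12). Its difference was 0.37 ± 0.04 (SE; limma adjusted p = 4.49e-08). Cdk6, the other kinase partner, was at 22.1 ± 2.43 in shCTRL and 10.7 ± 1.72 in shBmal1, a difference of -1.04 ± 0.06 (SE; limma adjusted p = 3.49e-12). Its 4sU/total ratio was higher by 0.38 ± 0.04 (adjusted p = 4.22e-06), as that of Ccnd2 was, while its 4sU intron level was lower (-0.21 ± 0.06; adjusted p = 0.0117). Rb1, the retinoblastoma gene, was lower (-0.84 ± 0.09; adjusted p = 4.39e-08).

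Of the G1/S cyclins and E2F factors, which act after cyclin D, 8 of 11 were higher and 1 lower in shBmal1 (median 0.32), against 34.4% and 33.1% of all genes. E2f2, an activator of S-phase genes, was higher by 1.26 ± 0.08 (SE; limma adjusted p = 6.89e-12), from a low level of 0.58 to 1.53 scaled RPKM. E2f3 was the 1 lower gene (-0.18 ± 0.04; limma adjusted p = 0.0011), and E2f1 was not called (0.05 ± 0.05; adjusted p = 0.317). Ccne1, which encodes cyclin E1, was higher by 0.61 ± 0.06 (adjusted p = 1.84e-08). Of 7 genes for the turnover of Wee1 and cyclin D, 1 was higher and 5 were lower (median -0.12), beside the same shares of all genes. Cdca3, which encodes the F-box-like protein Tome-1 that promotes Wee1 breakdown, was higher by 0.54 ± 0.07 (adjusted p = 1.77e-06), on exon lengths of 1965 bases in shCTRL and 1908 in shBmal1. Gsk3b, whose kinase marks cyclin D1 for breakdown, was lower (-0.27 ± 0.05; adjusted p = 0.000114).

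Myc differed little between the lines over most of the course. Its total exon level was 35.3 at the lowest, 43.3 at the median and 48.2 at the highest in shCTRL, and 38.7, 43.5 and 106 in shBmal1. The 106 belonged to the 46 h culture, and the next highest shBmal1 library was at 52.1. The lines overlapped, and the difference of 0.19 ± 0.09 (SE) was not called (limma adjusted p = 0.0843). Without the 46 h cultures it was smaller, 0.10, and called (adjusted p = 0.031), as it also was without 24 or 44 h, on RPKM as deposited (0.27, adjusted p = 0.0119) and with time points as a block (adjusted p = 0.0474).

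The same culture was the highest in the other layers. In 4sU exon, Myc was at 45.2, 54.0 and 61.5 (lowest, median, highest) in shCTRL and at 42.3, 56.8 and 149 in shBmal1. In 4sU introns it was at 2.86, 3.42 and 4.04 in shCTRL and at 3.01, 3.57 and 8.57 in shBmal1 (0.22 ± 0.11; limma adjusted p = 0.123; on RPKM as deposited -0.26, adjusted p = 0.0258). Without 46 h the 4sU intron difference of Myc was 0.14 (adjusted p = 0.103) and the 4sU exon difference 0.058 (adjusted p = 0.439), against 0.15 ± 0.11 with it (adjusted p = 0.245). In total introns the difference of 0.23 ± 0.09 was called (adjusted p = 0.042), and 6 of 12 single time points removed that call when left out (adjusted p up to 0.13); without 46 h it was 0.17 and called (adjusted p = 0.033).

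**Figure D5:**
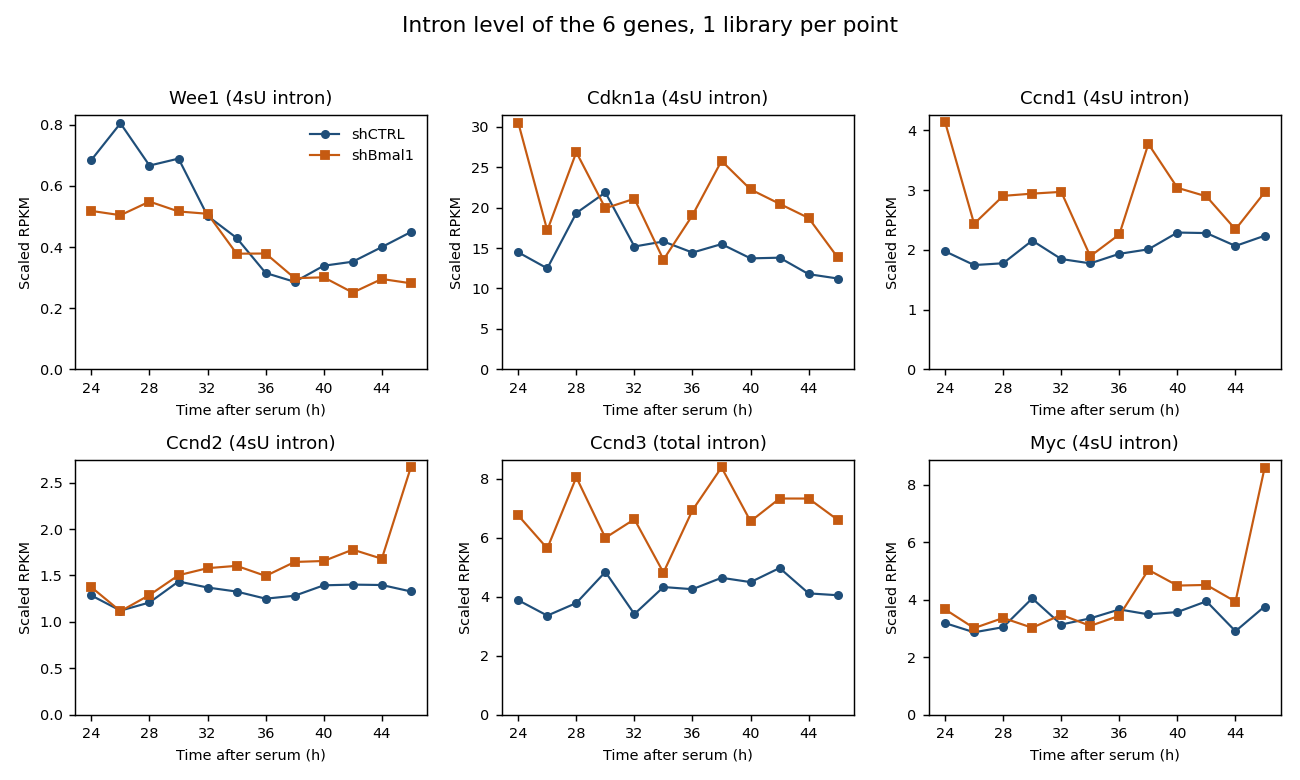
Intron level (scaled RPKM) of each gene against time after serum in h, with shCTRL as circles and shBmal1 as squares, 1 library per point; 4sU introns are shown except for Ccnd3, for which total RNA introns are. Wee1 goes from 0.80 at 26 h to 0.29 at 38 h in shCTRL, and Ccnd2 and Myc reach 2.67 and 8.57 in the shBmal1 culture of 46 h.

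The genes most like Myc were Chac1 (r = 0.95), Atf4 (0.94) and Egr1 (0.93), of which Atf4 is the main activator of the integrated stress response and Chac1 one of its targets. The shBmal1 culture of 46 h, in which Myc, Chac1 and Egr1 all lay far above the next highest shBmal1 library, enters these values. Likeness without it was not computed. Within the 12 shCTRL libraries r was 0.78 for Chac1, 0.87 for Atf4 and 0.93 for Egr1. Of 9 genes of the Myc network, 3 were higher and 3 lower in shBmal1 (median -0.07), so that 6 of 9 were called where 67.6% of all genes were. Mlx, a partner of Mondo and Mxd proteins, was higher by 0.44 ± 0.04 (SE; limma adjusted p = 2.25e-08). Mxi1, which competes with Myc for Max, was lower (-0.25 ± 0.04; adjusted p = 7.22e-06).

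In newly made RNA of shBmal1, Ccnd3 had called waves in 4sU exon and 4sU introns, and Myc in 4sU exon alone. Cdkn1a and Ccnd2 had none (4sU exon limma adjusted p = 0.799 and 0.8). The 4sU intron wave of Ccnd2 in shBmal1 was 0.21 and not called (limma adjusted p = 0.139), but it was called without 46 h (0.20, adjusted p = 0.0129). In 4sU exon (17.9% of genes called in shBmal1), Ccnd3 (0.32 ± 0.07, peak 42.3 h; limma adjusted p = 0.0129) and Myc (0.47 ± 0.11, peak 44.01 h; adjusted p = 0.0163) were called beside Wee1. In 4sU introns (5.82% of genes called), Ccnd3 was also called, on the length of 92088 bases (0.37 ± 0.08, peak 42.6 h; adjusted p = 0.0205). Myc was not called in 4sU introns (0.38 ± 0.11; adjusted p = 0.0977). Without 46 h the 4sU exon wave of Myc was 0.30 (adjusted p = 0.0108). The ratio of Ccnd3 had a called wave in shBmal1 (0.18 ± 0.04, peak 42.6 h; adjusted p = 0.0111), as had 18.0% of all genes, against 0.0184% in shCTRL. None of these 4 called waves of Ccnd3 and Myc kept its call with a straight line of time in the model (limma adjusted p = 0.187, 0.137, 0.312 and 0.0756). No difference between the lines was called for Ccnd3 or Myc in these layers. A 12-h wave in total exon RNA was called for none of the 6 in limma, and over all genes for 0 in shCTRL (352 at an unadjusted p under 0.05) and for 2, or 0.0183%, in shBmal1 (2644 at an unadjusted p under 0.05).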

How the data were processed

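The authors deposited an exon and an intron table of RPKM for 48 libraries. Per the submitters' processing notes, Trim Galore and HOMER 4.11.1 processed the reads, with mm10 (GRCm38.p6) as the genome. No aligner is named in the notes. Per the labels' protocols, libraries were strand-specific, paired-end and depleted of ribosomal RNA.

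Library totals and feature lengths were recovered from the steps of the deposited RPKM of low genes (largest distance of a total from a whole number 0.0176 for exons, 0.15 for introns) and tested on simulated data. RPKM of each layer were scaled by median ratios and put on log2 with a pseudocount of 0.1 (exon) or 0.02 (intron), so folds of low genes are understated. Fits took genes whose mean reached 0.5 exon or 0.1 intron RPKM (limma 3.58.1, R 4.3.3, trend and robust; Python 3 for tables). All 6 members passed in every layer. The model had a mean per line and 24-h and 12-h cosine and sine terms, no block, and Benjamini-Hochberg adjustment per layer and test. Time points do not number replicates of shared origin, so no pairing was assumed.

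Named genes were the 6 members, the 3 genes of highest correlation with each, and the 2 largest called total exon differences of each list. Cdk4, E2f1 and E2f3 were named in addition, after their values were seen. The members and lists were chosen with earlier results of these data known. Start regions were taken from RefSeq (GRCm38.p6).

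The alternatives were RPKM as deposited, larger pseudocounts (0.5 and 0.1), no filter, each time point left out, no time terms, a time point block, a linear term, 24-h terms alone, limma without trend and robust variance, and 1 length for Ccnd3.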

Additional observations from a re-analysis of the deposited data

Results flagged for a closer look

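The 24-h pattern of Wee1 in total exon RNA differed between the lines in a test of the difference itself (limma adjusted p = 0.0342), with an amplitude of 0.63 and a peak at 27.2 h in shCTRL against 0.31 and 29.6 h in shBmal1. The adjusted p ranged from 0.00736 to 0.221 over its 18 alternatives, and the call held in 8 of them.

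The 24-h pattern of Ccnd1 in total exon RNA also differed between the lines (limma adjusted p = 0.0073), with peaks at 43.7 h in shCTRL and 28.3 h in shBmal1. Its level was 34.6 at 24 h and 47.1 at 46 h in shCTRL, and 89.8 and 60.7 in shBmal1, and no difference was called with a straight line of time in the model (adjusted p = 0.999).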

How the results depend on the processing

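Over the alternatives, 513 of 541 member line differences kept their direction and side of the threshold, 9 lost and 12 gained a call, and 7 turned sign; of 1620 member rhythm results 1560 kept their side, 42 lost and 18 gained a call. The total exon and ratio differences of Ccnd1, Ccnd2 and Ccnd3 and the total exon difference of Cdkn1a were called under each alternative, as were all 15 pathway genes.

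On RPKM as deposited the 4sU intron differences became -0.019 for Cdkn1a, 0.020 for Ccnd1, -0.21 for Ccnd2 and -0.26 for Myc, and 9652 genes were called there (168 higher, 9484 lower) with all genes shifted to a median of -0.45. The shift comes with the larger intron totals of shBmal1 4sU. That setting also gave 0.27 for Myc in total exon, 0.41 for the size of the Wee1 wave difference, 21 differential waves in total introns and 154 12-h waves in shBmal1. On 1 length, Ccnd3 in 4sU introns was 0.41. The larger pseudocount called Wee1 in total exon (-0.13). Without time terms Wee1 in 4sU introns (-0.27) was not called. The time point as replicate block called Myc in total exon (0.19, adjusted p = 0.0474) and changed no other call of a member; the count of total exon calls was 7182. Libraries of the 2 lines share a time but no stated origin: their deviations from the line means correlated at -0.18 to 0.41 over the 12 times, above 0.1 at 9, and 5 shCTRL libraries correlated best with their own time. The Cdkn1a ratio difference turned sign without 28, 42 or 46 h (0.0051, 0.0036 and 0.011).

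With a linear term, 24-h waves fell to 108 genes in shCTRL, 11 in shBmal1 and 30 differential in total exon, 76, 10 and 21 in 4sU exon, 45 and 1 in total introns (shCTRL, shBmal1) and 45, 6 and 10 in 4sU introns; 12-h waves in shBmal1 fell to 0, as they did with neither trend nor robust variance. Ccnd1 then had 0.13 in shCTRL and 0.11 for the difference. With 24-h terms alone Ccnd1 was at 0.20 and 0.36 and Wee1 at 0.42 for the difference, all 3 no longer called, and waves numbered 79 and 218 in total introns and 78 in shCTRL 4sU introns. The cause was not tested.

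Leaving out 1 time point gave 202 to 468 waves in shCTRL, 376 to 1826 in shBmal1 and 38 to 171 differential waves in total exon, 88 to 276, 641 to 4026 and 22 to 921 in 4sU exon, 58 to 165, 38 to 558 and 6 to 20 in total introns, and 46 to 206, 133 to 1541 and 8 to 250 in 4sU introns; 12-h waves ranged from 0 to 2 (shCTRL) and from 0 to 1975 (shBmal1). The counts of line differences stayed within 1.5 times. Among the members the range was -0.15 to -0.11 for the Wee1 and 0.10 to 0.23 for the Myc line difference, 0.40 to 0.47 for the Wee1 and 0.32 to 0.38 for the Ccnd1 wave difference, 0.18 to 0.23 for the shCTRL wave of Ccnd1 (all total exon) and -0.029 to 0.011 for the Cdkn1a ratio. Calls changed without 24 or 34 h (Wee1), 24, 44 or 46 h (Myc), and 32, 42 or 44 h (Ccnd1 wave in shCTRL). The shBmal1 waves of Ccnd1 in total exon (lost without 30 or 40 h), Ccnd3 in 4sU exon (30 h), 4sU introns (30, 34, 40 or 44 h) and the ratio (40 h), and Myc in 4sU exon (34 or 40 h) also rested on single cultures. Members rested on at least 119 intron and 826 exon reads per library, and no time point had a second library.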

Other observations

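The genes that stood out with Myc in the shBmal1 culture of 46 h were looked up after the values were seen. Of 10912 genes, 10 had a total exon level there at least 1 (log2) above the next highest shBmal1 library, and Myc ranked 9th by that distance (1.03). Chac1 was first, at 142 scaled RPKM against 26.2 in the next highest shBmal1 library and 17.0 in shCTRL at 46 h. Trib3 was at 64.2 against 15.0 in the next highest shBmal1 library, Atf3 at 15.3 against 4.96, Mthfd2 at 19.9 against 7.55, Arid5a at 11.9 against 4.77, Ppp1r15a at 44.3 against 18.9, Extl1 at 1.398 against 0.63 and Acot2 at 19.2 against 9.47. Egr1, an immediate early gene, was at 29.4 against 13.8, but at 25.2 in the shCTRL culture of that time. A single culture has no repeat, so no test was made.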
